A study of Mus musculus with 15 samples.

Results

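At day 4 of a mouse embryonic stem (ES) cell differentiation, cells carrying the Msgn1-repV reporter were sorted from cultures in which the Wnt pathway was activated either by CHIRON99021 (CHIR), a small-molecule inhibitor of the kinase GSK3, or by the secreted protein Rspo3. The comparison takes the 3 day 4 arrays of the CHIR medium (CDL) and the 3 day 4 arrays of the Rspo3 medium (RDL), 6 of the 15 arrays of the series, as their titles assign them. All 6 came from cells of ES line E14 (strain 129P2), kept with LIF and 2i before differentiation. They had BMP4 at 10 ng/ml in N2B27 medium for 2 days, and then knock-out serum replacement, 0.5% DMSO and the BMP receptor inhibitor LDN193189 at 0.1 µM. CDL added CHIR at 1 µM and no Rspo3, and RDL added Rspo3 at 10 ng/ml and no CHIR. The CDL labels write the inhibitor as LDN193191. The other arrays used below are 3 of CDL and 3 of RDL at day 6, from line CK35 (strain 129Sv) sorted for Pax3-GFP, and 3 of unsorted E14 ES cells at day 0. RNA was labelled in 2 amplification cycles and hybridised to Affymetrix arrays. The labels call the arrays of a group biological replicates. The p-values rest on the spread between such arrays, pooled over the 5 groups of the series. These include the day 6 arrays of the other line and the ES arrays. The number of arrays limits the precision.

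Presomitic mesoderm is the tissue of the tail end of the embryo that is cut into somites, the blocks that give rise to vertebrae, skeletal muscle and dermis. Wnt signalling is high in its posterior part and falls toward the anterior part, where Mesp2 and Ripply genes set the segment boundary and Meox1, Tcf15 and Pax3 mark the forming somite. R-spondins act at the cell surface: bound to LGR receptors they remove the ubiquitin ligases Znrf3 and Rnf43, which leaves more Wnt receptor for Wnt ligands that must be present. CHIR acts inside the cell on GSK3, the kinase of the complex that marks beta-catenin for destruction, and needs no ligand.

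The arrays carried presomitic mesoderm markers, and 1 of the 6 stood apart. Of 6 presomitic markers (Msgn1, Tbx6, Dll1, Dll3, Hes7 and Rspo3) all 6 lay above the array median on each day 4 array, with summed signals between 6635 and 8448 in CDL, between 6668 and 7328 in RDL and between 175 and 192 in ES cells. Array medians lay between 29.6 and 30.8 signal units. Across genes, CDL replicate 1 correlated at 0.98 to 0.982 with its group mates, which correlated at 0.996 with each other, and its mean correlation with the ES arrays was 0.899, against 0.835 to 0.841 for the other 5. The summed signal of 6 ES cell markers was 12740 in CDL replicate 1, 2926 and 2819 in CDL replicates 2 and 3, 2187 to 2343 in RDL and at least 30225 in ES cells. Dppa5a made most of that sum on all 6 day 4 arrays, with 7606 in CDL replicate 1, 2288 and 2267 in CDL replicates 2 and 3, and 1868 to 2012 in RDL. The defining ES marker Nanog had a signal of 1441 in CDL replicate 1, 40.9 and 41.4 in CDL replicates 2 and 3, and 31.6 to 40.04 in RDL. Results are given with all 6 arrays and, after "without it" or "without CDL replicate 1", for the fit that leaves that array out.

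Markers of most other cell types were low or below the array median. The endoderm markers Sox17 and Foxa2, the endothelial and blood markers Cdh5, Tal1 and Hbb-bh1, the cardiac markers Nkx2-5 and Gata4 and the fibroblast markers Postn, Lum and Dcn lay below the array median on all 6 arrays. The other members of these lists lay above the median on all 6, namely Ttr (45.4 to 47.7 in CDL and 43.8 to 50.7 in RDL), Kdr (47.4 to 55.5 in CDL and 51.7 to 68.2 in RDL), Hand1 (71.9 to 91.1 in CDL and 68.4 to 76.9 in RDL), Col1a1 (33.0 to 37.4 in CDL and 44.5 to 53.9 in RDL) and Thy1 (59.5 to 67.6 in CDL and 61.7 to 89.7 in RDL), as did the neural crest marker Sox10 (54.9 to 67.8 in CDL and 53.9 to 61.7 in RDL). Summed over their lists, the signals were 81.5 to 89.4 in CDL and 71.4 to 75.1 in RDL for endoderm, and 93.7 to 111 in CDL and 104 to 127 in RDL for endothelium and blood. They were 122 to 142 in CDL and 118 to 127 in RDL for lateral plate, and 138 to 156 in CDL and 164 to 188 in RDL for feeder fibroblasts. The neural crest sum was 82.3 to 112 in CDL and 80.7 to 89.8 in RDL. Its other marker, Tfap2a, read 47.4 in CDL replicate 1, above the array median, and 26.8 to 30.2 on the other 5 arrays, below it. In ES cells Tfap2a read 115 to 139. The neural sum was 1166 in CDL replicate 1 and 113 to 132 on the other 5, of which Sox2, also an ES cell gene, made 1102 in CDL replicate 1. Epithelial markers, described further below, were bright on all 6 arrays, with sums of 5815 to 6999 in CDL and 4214 to 5713 in RDL.

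Differences are CDL minus RDL on the scale log2(signal + 12.6), with the standard error (SE) of a limma fit over all 15 arrays. A gene was called at a Benjamini-Hochberg adjusted p under 0.05 over 12400 genes. The constant makes this scale understate the change of dim genes. With all arrays 359 genes were higher in CDL, 2.9% of those tested, and 188 were lower, 1.52% (4.41% either way). Of these, 52 higher and 44 lower genes differed at least 2-fold. Without CDL replicate 1 the counts were 264 higher (2.13%) and 128 lower (1.03%), or 3.16% either way. The calls of 245 higher genes (68.2%) and 114 lower genes (60.6%) were made both ways, and 0 genes were called in opposite directions. The median difference over all genes was -0.00233, and -0.00972 without that array. Leaving out RDL replicate 1 or 2 lowered the higher count to 217 or 234. The lower count became 107 without RDL replicate 2, 125 without RDL replicate 3 and 125 without CDL replicate 2. Each gene was read from its brightest probe set, so that a count over a list can differ on its other probe sets. The 15 largest increases and 15 largest decreases were named among genes whose groups did not overlap. Of all tested genes 24.5% had such groups, so the separation of these named genes is no result of its own. In bulk RNA, fewer cells of a type and less RNA of a gene per cell cannot be told apart.

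**Figure D1:**
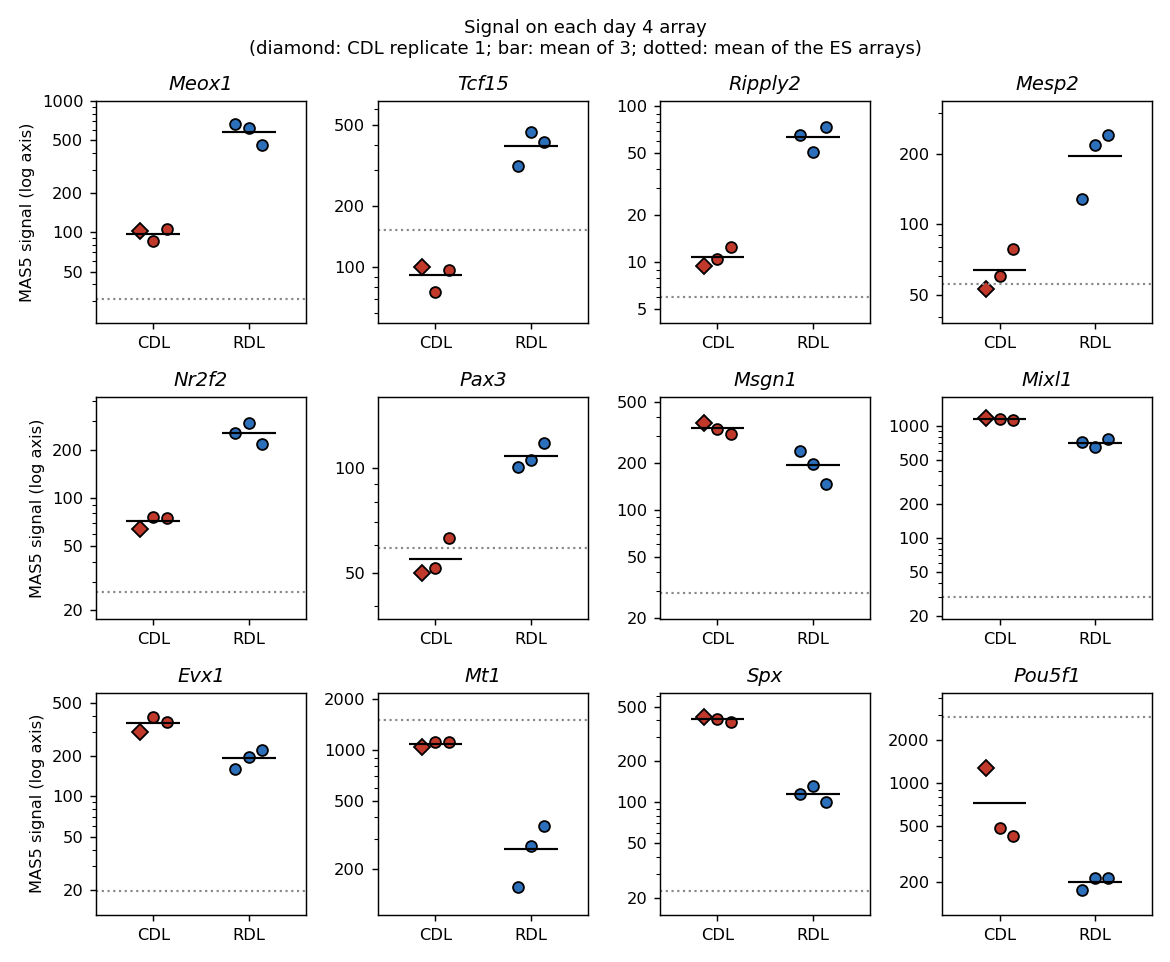
Signal of 12 genes on each day 4 array (vertical axes, logarithmic, MAS5 signal units), with CDL points left and RDL points right, a diamond for CDL replicate 1, a bar at the mean of 3 arrays and a dotted line at the ES mean. In Meox1 the CDL arrays lie between 84.8 and 105 and the RDL arrays between 463 and 662, whereas in Pou5f1 CDL replicate 1 stands at 1277, above its group mates at 486 and 424.

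Of 13 tested genes in the list of somite formation, 6 were lower in CDL (46.2%, against 1.52% of all genes) and 0 were higher. Without CDL replicate 1, 5 were lower. The list median was -0.55 with all arrays and -0.43 without CDL replicate 1. Meox1, a homeobox gene of the forming somite, had signals of 102, 84.8 and 105 on the CDL arrays, against 662, 618 and 463 on the RDL arrays. No CDL array came near an RDL array, and the ES mean was 30.6. The difference was -2.42 ± 0.18 (limma adjusted p = 1.24e-06), and -2.46 without CDL replicate 1. Tcf15 (paraxis), which is needed for the somite to form an epithelium, had signals of 101, 75.8 and 97.6 in CDL, against 313, 461 and 411 in RDL (-1.96 ± 0.22, adjusted p = 7.17e-05; -2.03 without it). Its CDL arrays lay below the ES mean of 152. Dmrt2, which acts in the dermomyotome, had signals of 8.03, 11.6 and 9.63 in CDL and of 40.8, 93.0 and 50.8 in RDL. The Dmrt2 difference was -1.67 ± 0.26, and -1.61 without CDL replicate 1. Its CDL arrays, like those of Ripply2 below, were under the array medians. The forkhead gene Foxc2, needed for somitogenesis together with Foxc1, had signals of 198, 298 and 439 in CDL, against 802, 698 and 779 in RDL. Its groups did not overlap, but its call (-1.32 ± 0.28, adjusted p = 0.0119) was lost without CDL replicate 1 (-1.04, adjusted p = 0.0538) and without RDL replicate 1 (-1.28, adjusted p = 0.0526). The other members called were Pax3 and the ligand gene Fgf9 (-0.55 ± 0.11; -0.60 without it).

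Of 12 genes of the segment boundary and of somite polarity, 6 were lower in CDL and 1 was higher, with a median of -0.76. They are 50% and 8.33% of the list, against 1.52% lower and 2.9% higher over all genes. Without CDL replicate 1 the counts were 5 and 0. Ripply2, which switches off the presomitic program at the boundary, had signals of 9.42, 10.5 and 12.5 in CDL, against 65.5, 51.0 and 73.8 in RDL. The CDL arrays were closer to the ES mean of 6.01 than to any RDL array, and the difference was -1.69 ± 0.11 (limma adjusted p = 4.97e-07; -1.65 without CDL replicate 1). Mesp2, the transcription factor that places the boundary, had signals of 52.9, 60.0 and 78.7 in CDL and of 129, 218 and 241 in RDL. The CDL arrays lay at about the ES mean of 55.4. The Mesp2 difference was -1.42 ± 0.21 (limma adjusted p = 0.000783), and -1.31 without CDL replicate 1. Its neighbour and paralogue Mesp1, a gene of early mesoderm, was lower by less (-1.01 ± 0.17; -0.78 without it), and sequence shared by the paralogues may link their probe sets. Efnb2, an ephrin of the posterior somite compartment, had signals of 174, 247 and 263 in CDL, against 601, 764 and 669.9 in RDL (-1.54 ± 0.26, adjusted p = 0.00236; -1.36 without it; -0.80 as a mean over probe sets). Pcdh8, a protocadherin of the forming somite, had 141, 369.5 and 329 in CDL, against 635, 917 and 663 in RDL. CDL replicate 1 was the lowest array, and the difference of -1.45 ± 0.30 became -1.04 without it. The Pcdh8 call was lost without RDL replicate 2 (-1.28, adjusted p = 0.0552). The gene of this list higher with all arrays was the receptor Epha4 (0.58 ± 0.13), which did not pass without CDL replicate 1, CDL replicate 3, RDL replicate 1 or RDL replicate 2 (0.53 to 0.57, adjusted p = 0.0527 to 0.0796).

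Of 10 tested dermomyotome and muscle progenitor genes, 5 were lower in CDL and 0 were higher, with and without CDL replicate 1 (median -0.56 and -0.49). The 5 are 50% of the list, against 1.52% lower over all genes. Pax3, which marks muscle progenitors and the front of the presomitic mesoderm, had signals of 49.8, 51.6 and 62.7 in CDL, against 101, 105 and 119 in RDL (-0.85 ± 0.15, limma adjusted p = 0.00225; -0.80 without CDL replicate 1). The CDL arrays lay around the ES mean of 58.9. The receptor gene Met, through which muscle progenitors are guided to migrate, had signals of 69.3, 81.1 and 85.6 in CDL and of 160.3, 206 and 227 in RDL (-1.19 ± 0.14; -1.12 without it; -0.60 as a mean over probe sets). Eya1, a transcriptional coactivator and phosphatase, had signals of 63.1, 53.8 and 46.8 in CDL, below both the RDL arrays at 124, 156 and 134 and the ES mean of 167 (-1.17 ± 0.14; -1.26 without it), while its other bright probe set differed by -0.22 (adjusted p = 0.368) and the mean over probe sets by -0.52. Sim1, a bHLH-PAS factor of the lateral dermomyotome, differed by -1.52 ± 0.15 (-1.38 without it), but its other bright probe set differed by -0.01. The other gene of the list called was Dmrt2. Of 6 tested sclerotome genes Foxc2 was the single call (16.7% of the list).

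In the list of COUP nuclear receptors and Meis-Pbx cofactors 3 of 10 genes were lower in CDL and 0 were higher, and in the retinoic acid pathway 3 of 13 were lower and 0 higher, or 2 and 0 without CDL replicate 1 (medians -0.15 and -0.13). The lower genes are 30% and 23.1% of these lists, against 1.52% of all genes. Nr2f2 (COUP-TFII), a nuclear receptor of mesenchyme, had signals of 64.0, 76.1 and 75.4 in CDL and of 254, 292 and 216 in RDL. The Nr2f2 difference was -1.65 ± 0.19 (limma adjusted p = 9.97e-05), and -1.58 without CDL replicate 1. Its other probe sets were dimmer, and the mean over its probe sets gave -0.70. Nr2f1 (COUP-TFI) had signals of 10.6, 12.3 and 11.3 in CDL, near the ES mean of 11.6, against 41.3, 47.6 and 37.6 in RDL (-1.19 ± 0.18; -1.16 without it). The CDL arrays of Nr2f1 were below the array medians. Meis1, a homeodomain partner of Hox proteins, had signals of 61.8, 92.9 and 115 in CDL, against 289, 294 and 290.4 in RDL (-1.60 ± 0.16; -1.39 without it; -0.87 as a mean over probe sets). The retinoic acid receptor gene Rarb, itself a retinoic acid target, had signals of 14.5, 38.0 and 24.1 in CDL, against 66.7, 95.7 and 61.4 in RDL (-1.22 ± 0.18; -0.998 without it). Cyp26a1, which degrades retinoic acid, was lower as well, with 213, 208 and 181 in CDL and 412, 362 and 350.0 in RDL (-0.86 ± 0.14; -0.90 without it). The synthesising enzyme Aldh1a2 did not pass (-0.45 ± 0.16, adjusted p = 0.154). The remaining call of the pathway, the retinal reductase gene Dhrs3 (-0.46 ± 0.11), was lost without CDL replicate 1 or 3 or RDL replicate 2 or 3 (-0.48 to -0.40, adjusted p = 0.053 to 0.13).

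Hox genes of paralogue groups 6 to 9 had 0 higher and 4 lower of 9 tested (Hoxa9, Hoxb6, Hoxc8 and Hoxd8), with a median of -0.52. The 4 are 44.4% of the list, against 1.52% lower over all genes. Without CDL replicate 1 the count was 1 lower and the median -0.37. The Hoxb6 call was lost without CDL replicate 1 or 2 or RDL replicate 2 or 3 (-0.73 to -0.66, adjusted p = 0.0546 to 0.0615), that of Hoxc8 without CDL replicate 1 or 2 or RDL replicate 1 or 3 (-0.93 to -0.64, adjusted p = 0.0511 to 0.127) and that of Hoxd8 without CDL replicate 1 or RDL replicate 1 or 2 (-0.63 to -0.48, adjusted p = 0.0629 to 0.154). Hoxa9 was the one of the 4 that kept its call in each alternative, with signals of 22.3, 24.8 and 22.1 in CDL and of 56.3, 65.1 and 55.4 in RDL (-1.004 ± 0.18, limma adjusted p = 0.00392; -0.99 without it). Its CDL arrays were below the array medians. The other bright Hoxa9 probe set differed by -0.34 (limma adjusted p = 0.28 over all bright probe sets), and the mean over probe sets by -0.67. In groups 1 to 5, 0 of 13 were higher and 2 were lower (Hoxc5 and Hoxd1, 15.4% of the list). Hoxc5 (-0.57 ± 0.11; -0.33 as a mean over probe sets) remained without CDL replicate 1, at -0.48. Hoxd1 was lost without CDL replicate 1 (-0.60, adjusted p = 0.0619) or RDL replicate 2 (-0.65, adjusted p = 0.0726). Hoxb1, one of the first Hox genes to be switched on, did not pass (0.47 ± 0.18, adjusted p = 0.186). The imprinted growth factor gene Igf2 was among the brightest decreases, with 1742, 2414 and 2629 in CDL, against 4431, 5131 and 4613 in RDL (-1.08 ± 0.13; -0.90 without it). Mest, another imprinted gene, was lower (-1.20 ± 0.12; -1.12 without it), while the cell cycle inhibitor gene Cdkn1c, also imprinted, was higher (0.76 ± 0.15; 0.74 without it). Of 21 tested imprinted genes 1 was higher (4.76%, against 2.9% of all genes) and 4 were lower (19%, against 1.52%). Without CDL replicate 1 the counts were 1 and 2.

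Of 17 tested genes of the primitive streak and tail bud, 6 were higher in CDL and 2 were lower, or 6 and 1 without CDL replicate 1 (median 0.35 and 0.37). With all arrays these are 35.3% and 11.8% of the list, against 2.9% and 1.52% of all genes. Mixl1, a homeobox gene of the streak, had signals of 1173, 1169.7 and 1129 in CDL, against 726, 647 and 765 in RDL. The CDL arrays lay close together and above every RDL array (0.69 ± 0.10, limma adjusted p = 0.000878; 0.68 without it). Evx1, a homeobox gene of the posterior streak, had signals of 304, 393 and 356 in CDL and of 160.0, 198 and 219 in RDL (0.83 ± 0.13; 0.93 without it). Cdx4, a Wnt-responsive homeobox gene of the tail bud, had signals of 43.1, 38.8 and 34.0 in CDL, against 17.5, 15.6 and 17.7 in RDL (0.79 ± 0.08, adjusted p = 2e-05; 0.73 without it). Its RDL arrays were below the array medians. Wnt3a, the ligand that maintains the tail bud, had signals of 95.7, 83.3 and 92.4 in CDL and of 55.9, 57.1 and 46.1 in RDL (0.65 ± 0.09; 0.62 without it). The remaining higher members were Fgf4, described below, and Nkx1-2 (0.65, named after its value was seen), which was lost without CDL replicate 1. In its place Cdx2, which drives the posterior body axis, passed without that array, at 0.76 against 0.54 with all arrays (adjusted p = 0.0034 and 0.0774). The lower members were Mesp1 and Lhx1, a LIM homeobox gene of the streak and of intermediate mesoderm (-1.01 ± 0.22), whose call was lost without CDL replicate 1, RDL replicate 1 or RDL replicate 2 (-0.99 to -0.93, adjusted p = 0.0519 to 0.0717).

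Msgn1, the gene behind the sort reporter and a factor that drives presomitic mesoderm fate, had signals of 366, 334 and 312 in CDL, against 241, 198 and 148 in RDL. Every CDL array was above every RDL array (0.77 ± 0.14, limma adjusted p = 0.00403; 0.71 without CDL replicate 1), in cells sorted as positive in both media. The promoter of Msgn1 is shown because both media act through Wnt and the gene was higher in one of them. It is 250 bases before to 30 after the RefSeq start on GRCm38.p6, at chr12:11208919-11209198 on the minus strand, with capitals at the letters CTTTGAT or CTTTGTT, the core bound by TCF/LEF factors, on either strand. This window holds 1 match, and 8.88% of 32851 windows of the same length hold at least 1.
Msgn1: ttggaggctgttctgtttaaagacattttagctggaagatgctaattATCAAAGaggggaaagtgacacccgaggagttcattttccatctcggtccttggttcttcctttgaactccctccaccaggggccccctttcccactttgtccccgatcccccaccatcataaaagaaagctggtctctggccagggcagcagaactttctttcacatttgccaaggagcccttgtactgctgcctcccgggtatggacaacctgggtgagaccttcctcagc
A match is a description of letters and not evidence of binding. In the list of 14 posterior presomitic genes 2 were higher (Msgn1 and Evx1) and 2 were lower (Fgf18 and Pcdh8), with and without CDL replicate 1. That is 14.3% each way, against 2.9% higher and 1.52% lower over all genes. Fgf18, a ligand gene, had signals of 18.0, 17.0 and 19.4 in CDL, below the array medians, and of 53.1, 55.8 and 61.7 in RDL (-1.18 ± 0.16; -1.17 without it). Among members that did not pass were Tbx6 (0.21), Dll1 (-0.09), Dll3 (0.05) and the oscillating repressor gene Hes7 (-0.04), with adjusted p = 0.506 to 0.957.

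**Figure D2:**
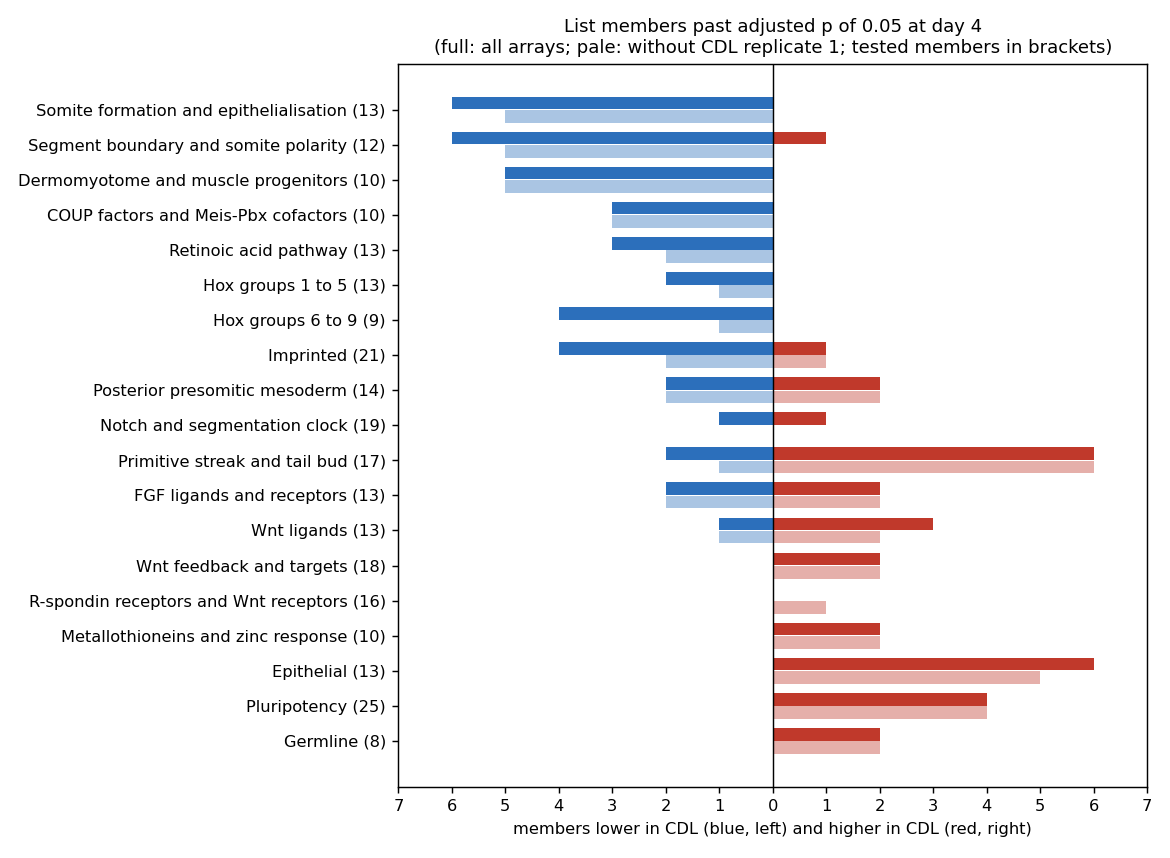
Number of members of 19 gene lists past an adjusted p of 0.05 at day 4, lower in CDL to the left (blue) and higher in CDL to the right (red), with full bars for all arrays, pale bars without CDL replicate 1 and the tested members in brackets. Somite formation has 6 of 13 lower and 0 higher, and the primitive streak and tail bud list has 6 of 17 higher and 2 lower. Over all genes tested 2.9% were higher and 1.52% lower.

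Of 16 tested R-spondin, LGR, ZNRF3, LRP and Frizzled genes 0 were higher and 0 lower with all arrays, and 1 was higher without CDL replicate 1 (median 0.11 and 0.10). Over all genes 2.9% were higher and 1.52% lower with all arrays. At an unadjusted p under 0.05, 1843 of all 12400 genes passed. Lgr4, an R-spondin receptor, had signals of 587, 817 and 723 in CDL, against 469.6, 585 and 633 in RDL (0.32 ± 0.18, 95% interval -0.05 to 0.70, limma adjusted p = 0.424). The ligase gene Znrf3, itself a Wnt target, had signals of 189.8, 299.7 and 262 in CDL and of 199, 219 and 199 in RDL (0.25, 95% interval -0.28 to 0.78). In both genes the groups overlapped. The cells' own Rspo3 had signals of 2003, 2316 and 2304 in CDL, against 1824, 1642 and 1735 in RDL, to which the protein had been added. Its CDL arrays were all higher, but the difference did not pass (0.34, 95% interval 0.05 to 0.64, adjusted p = 0.225; 0.41 without it). A second, dimmer Rspo3 probe set did pass (0.49, adjusted p = 0.00816 over all bright probe sets). So did 2 dimmer probe sets of the receptor gene Fzd2 (-0.71 and -0.74, adjusted p = 0.041 and 0.01), whose brightest one did not (-0.63, adjusted p = 0.0697), so the count of 0 holds for the brightest probe sets. The receptor gene called without CDL replicate 1 was Fzd10 (0.50, adjusted p = 0.0199; 0.35 and adjusted p = 0.155 with all arrays). Fzd5 had signals of 109, 29.2 and 19.6 in CDL, against 16.4, 15.9 and 19.3 in RDL and a mean of 601 in ES cells, and did not pass (0.88; 0.30 without CDL replicate 1).

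Of 18 tested feedback genes and targets of the pathway, 2 were higher in CDL (11.1%, against 2.9% of all genes) and 0 were lower. The median was 0.18, against -0.00233 over all genes. The higher genes were Cdx4, above, and the cyclin gene Ccnd1, with signals of 937, 1069 and 809 in CDL and of 677, 647 and 656 in RDL (0.49 ± 0.12, limma adjusted p = 0.0342). The Ccnd1 call was lost without any 1 of CDL replicates 1 and 2 and the RDL replicates (0.39 to 0.51, adjusted p = 0.0852 to 0.163). Without CDL replicate 1 the 2 higher genes were Cdx4 and Cdx2. Axin2, the most used readout of beta-catenin activity, had signals of 397, 769 and 534 in CDL, against 389.6, 568 and 336 in RDL. Its spread within each medium was as wide as the gap between the media (0.37 ± 0.23, 95% interval -0.11 to 0.85; 0.59 without CDL replicate 1, adjusted p = 0.233). Lef1, a transcription factor of the pathway, had signals of 1417, 1704 and 1711 in CDL and of 1568, 1584 and 1514 in RDL (0.05, 95% interval -0.40 to 0.49). The target genes Sp5 (0.26, -0.15 to 0.68) and Nkd1 (0.10, -0.40 to 0.60) did not pass either.

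None of 9 genes of the destruction complex passed in limma, with or without CDL replicate 1. Ctnnb1, which encodes beta-catenin, had signals of 6268, 6339 and 6375 in CDL and of 6112, 6346 and 6371 in RDL (0.01, 95% interval -0.12 to 0.14). The transcripts of CHIR's targets, Gsk3a (0.04, -0.34 to 0.42) and Gsk3b (0.00, -0.39 to 0.38), had wider intervals. These are RNA levels and do not measure kinase activity or beta-catenin protein. Among 13 tested Wnt ligand genes 3 were higher (Wnt3a, Wnt2 and Wnt8a) and 1 was lower (Wnt4, -0.50 ± 0.10; -0.26 as a mean over probe sets). These are 23.1% and 7.69% of the list, against 2.9% and 1.52% of all genes. Wnt2 had signals of 34.5, 30.9 and 37.2 in CDL, against 18.7, 19.2 and 21.4 in RDL, below the array medians (0.53 ± 0.07; 0.53 without it). Wnt8a (0.32) was lost without CDL replicate 1 or 3 or any 1 RDL array (0.25 to 0.35, adjusted p = 0.0638 to 0.152), and Wnt4 without CDL replicate 2 (-0.43, adjusted p = 0.0558).

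**Figure D3:**
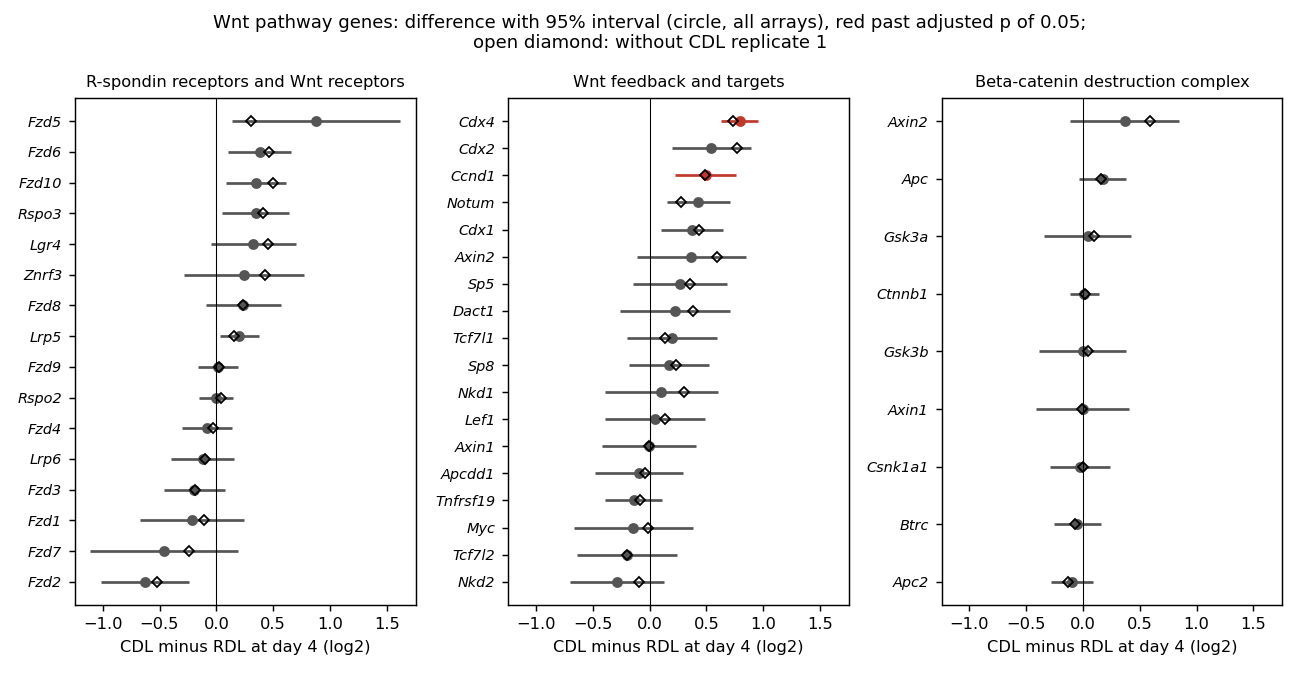
Difference between CDL and RDL at day 4 (horizontal axes, log2) for the tested genes of 3 Wnt pathway lists, as circles with 95% intervals of the limma fit, red where the adjusted p is under 0.05, and as open diamonds without CDL replicate 1. Cdx4 at 0.79 and Ccnd1 at 0.49 are red, and the interval of Ctnnb1 is narrow, between -0.12 and 0.14.

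Of 13 FGF ligand and receptor genes, 2 were higher (Fgf3 and Fgf4) and 2 lower (Fgf18 and Fgf9), with and without CDL replicate 1, or 15.4% in each direction against 2.9% higher and 1.52% lower over all genes. Fgf3 had signals of 285, 303 and 321 in CDL and of 215, 193 and 166 in RDL (0.64 ± 0.13, limma adjusted p = 0.00698; 0.68 without it). Of 11 ERK feedback genes 0 passed in either direction, with the ERK phosphatase gene Dusp6 at -0.20 ± 0.13 (adjusted p = 0.559), and 0 of 16 immediate early genes and 0 of 12 BMP targets passed. Of 19 Notch and clock genes 1 was higher (Hes6, 0.36) and 1 lower (Hey1, -0.87), each 5.26% of the list against 2.9% and 1.52% of all genes, and neither passed without CDL replicate 1 (0.29 and -0.72, adjusted p = 0.196 and 0.0722). Hey1 was also lost without RDL replicate 2 or 3 (-0.87 and -0.65), and Hes6 without CDL replicate 2 or any 1 RDL array (0.30 to 0.40). Fst, which binds activins, had signals of 855, 1089 and 960.2 in CDL, against 594, 624 and 629 in RDL (0.64 ± 0.14). The Fst call was lost without CDL replicate 2 (0.55, adjusted p = 0.0682) or RDL replicate 1 (0.61, adjusted p = 0.0542). Of 9 tested secreted Wnt inhibitor genes 0 were higher and 1 was lower with all arrays (11.1%, against 1.52% of all genes). This was Cer1 (-0.52), also in the segment boundary list. The Cer1 call was lost without CDL replicate 1 or 2 or any 1 RDL array (-0.57 to -0.46, limma adjusted p = 0.0783 to 0.1655). Without CDL replicate 1 the inhibitor gene Dkk1 passed, at 0.96 against 0.70 with all arrays (adjusted p = 0.028 and 0.142).

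The metallothionein genes Mt1 and Mt2, which encode small proteins that bind zinc and other metals, were among the large increases in CDL. Mt1 had signals of 1043, 1109 and 1109.9 in CDL, against 155, 273 and 359 in RDL. The 3 CDL arrays were alike and the RDL arrays spread over more than 2-fold, and the difference was 2.07 ± 0.20 (limma adjusted p = 2e-05; 2.10 without CDL replicate 1). A second bright Mt1 probe set read 35.9 in CDL and 34.1 in RDL (0.06), and the mean over the probe sets was 1.07. Mt2 had signals of 980.1, 734 and 759 in CDL and of 161, 236 and 297 in RDL (1.80 ± 0.19; 1.68 without it). ES cells were higher still for both genes, with means of 1498 for Mt1 and 2148 for Mt2. The other 8 tested genes of the metallothionein and zinc list did not pass, among them the zinc exporter gene Slc30a1 (0.02 ± 0.32), with signals of 218, 472 and 295 in CDL and of 209, 477 and 295 in RDL.

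Mt1 and Mt2 lie side by side, and their promoters are shown because the genes were higher together. Both windows run from 250 bases before to 30 after the RefSeq start on GRCm38.p6, on the plus strand, Mt1 at chr8:94178839-94179118 and Mt2 at chr8:94172368-94172647. Capitals mark TGCNCNC on either strand, with any base at N. This is looser than the core of the metal response element bound by the zinc-sensing factor Mtf1, which has A or G at the first N. The marked GGGAGCA and TGCTCTC of Mt2 have neither there, read on the matching strand. The Mt2 window holds 6 matches, 5 of them before the start, and the Mt1 window holds 3, with 1 before the start. These counts depend on the RefSeq start used, and bases outside the windows were not searched. No match overlaps another.
Mt1: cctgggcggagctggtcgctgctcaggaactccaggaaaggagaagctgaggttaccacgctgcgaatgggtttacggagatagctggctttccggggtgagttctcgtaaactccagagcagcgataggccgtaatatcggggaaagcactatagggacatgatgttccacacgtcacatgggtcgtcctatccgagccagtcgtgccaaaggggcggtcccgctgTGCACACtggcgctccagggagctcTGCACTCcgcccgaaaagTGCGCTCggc
Mt2: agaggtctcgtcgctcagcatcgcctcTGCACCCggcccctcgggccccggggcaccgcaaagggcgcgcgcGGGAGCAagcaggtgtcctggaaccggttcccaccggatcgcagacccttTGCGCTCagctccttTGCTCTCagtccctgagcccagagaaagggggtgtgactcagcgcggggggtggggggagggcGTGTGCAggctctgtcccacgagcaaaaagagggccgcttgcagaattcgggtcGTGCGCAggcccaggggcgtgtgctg
Of 32851 promoter windows of this length, 48.5% hold at least 1 match, 6.11% at least 3 and 0.155% at least 6. Mtf1 itself did not pass at the RNA level (-0.15, limma adjusted p = 0.712). The matches are a property of the sequence and were not tested for a part in the difference between the media.

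Other large increases lay outside these lists. Spx, which encodes the neuropeptide spexin, had signals of 422, 405 and 386 in CDL, against 115, 132 and 99.8 in RDL and a mean of 22.6 in ES cells. Its groups lay far apart with little spread (1.71 ± 0.09, limma adjusted p = 7.62e-08; 1.68 without CDL replicate 1). Defa31, an alpha-defensin gene, had signals of 1157, 1292 and 1053 in CDL and of 317, 339 and 323 in RDL (1.80 ± 0.10; 1.80 without it), on a probe set that related defensin genes may share. Cpxm2, a carboxypeptidase-like gene, had signals of 228, 219 and 191 in CDL, against 66.5, 69.4 and 70.7 in RDL (1.46 ± 0.11; 1.41 without it; 0.94 as a mean over probe sets). Igfbp3, which binds insulin-like growth factors, had signals of 321, 386 and 362 in CDL and of 115, 127 and 167 in RDL (1.32 ± 0.18; 1.39 without it). Igf2 was lower on the same arrays, as given above. Uap1l1, a paralogue of a sugar-nucleotide enzyme gene, was higher (1.37 ± 0.09; 1.38 without it; 0.89 as a mean over probe sets) with signals of 335, 365 and 317 in CDL, against 113, 128 and 129 in RDL. Egln3, a hypoxia-induced prolyl hydroxylase gene, had signals of 293, 353 and 355 in CDL and of 126, 158 and 185 in RDL (1.05 ± 0.13; 1.13 without it). Of 13 hypoxia genes it and Adm (0.40 ± 0.09) were higher (15.4%, against 2.9% of all genes) and 0 were lower. The glucose transporter gene Slc2a1 stood at -0.01. The Adm call was lost without CDL replicate 2 or 3 or RDL replicate 1 (0.31 to 0.38, adjusted p = 0.0646 to 0.123). Of 16 tested glycolysis genes 0 passed on their brightest probe sets, whereas 2 dimmer probe sets of the aldolase gene Aldoa were higher (0.42 and 0.33, adjusted p = 0.0308 and 0.0225).

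Epithelial genes were higher in CDL in 6 of 13 cases and lower in 0, or 5 and 0 without CDL replicate 1 (median 0.53 and 0.38). The 6 are 46.2% of the list, against 2.9% higher over all genes. Cdh1, which encodes E-cadherin, had signals of 1512, 1104 and 906 in CDL, against 358, 411 and 499 in RDL. All 3 CDL arrays were above the RDL arrays and below the ES mean of 2560.3 (1.43 ± 0.22, limma adjusted p = 0.000974; 1.23 without CDL replicate 1). Epcam had signals of 459.9, 433 and 364 in CDL and of 209.8, 256 and 259 in RDL (0.76 ± 0.14; 0.70 without it), while its other bright probe set read 65.6 in CDL and 70.0 in RDL (-0.07) and the mean over probe sets differed by 0.35. The tight junction gene Cldn4 had 212, 171 and 172 in CDL, against 52.8, 68.4 and 99.3 in RDL (1.23 ± 0.17; 1.13 without it). Esrp1, a splicing factor of epithelia that was dim in ES cells (12.2), had 66.6, 68.0 and 52.6 in CDL and 30.1, 35.7 and 38.1 in RDL (0.66 ± 0.11; 0.62 without it). The protease inhibitor gene Spint2 was higher too (0.84 ± 0.14; 0.80 without it), and Spint1 (0.61) lost its call without CDL replicates 1 or 2 or RDL replicates 1 or 2 (0.51 to 0.61, adjusted p = 0.0846 to 0.12). Keratin genes did not pass (Krt8 0.37, adjusted p = 0.282; Krt18 -0.09, adjusted p = 0.834). The 4 epithelial markers summed to 6999, 6601 and 5815 in CDL, against 4263, 4214 and 5713 in RDL. Krt8 made most of each sum, with 4129, 4119 and 3684 in CDL and 2824, 2667 and 3806 in RDL. It read 124 to 144 in ES cells. The part of these markers in the result was not tested.

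Pluripotency genes depended most on CDL replicate 1. Of 25 tested, 4 were higher (Pou5f1, Klf5, Dppa2 and Fgf4) and 0 lower both with and without that array, but the list median was 0.79 with it and 0.15 without it. The 4 are 16% of the list, against 2.9% higher over all genes. Pou5f1, which encodes OCT4, had signals of 1277, 486 and 424 in CDL, against 176, 215 and 213 in RDL. CDL replicate 1 was the highest array, and replicates 2 and 3 were still about 2-fold above RDL (1.62 ± 0.30, limma adjusted p = 0.00448; 1.13 without CDL replicate 1). Klf5, a zinc finger factor of pluripotent cells and epithelia, had signals of 1206, 1165 and 655 in CDL and of 309, 526 and 382 in RDL (1.27 ± 0.23; 1.12 without CDL replicate 1), while its other bright probe set differed by 0.24 (adjusted p = 0.472) and the mean over probe sets by 0.51. Dppa2 had signals of 482, 115 and 70.6 in CDL, against 37.1, 31.8 and 35.5 in RDL (1.88 ± 0.42; 1.12 without CDL replicate 1). Fgf4, a growth factor gene of the epiblast and streak, had 573, 229 and 203 in CDL and 149, 143 and 129.7 in RDL (1.03 ± 0.25; 0.58 without CDL replicate 1; 0.62 as a mean over probe sets). The Dppa2 and Fgf4 calls were each lost when any 1 RDL array was left out (1.83 to 1.91, adjusted p = 0.0506 to 0.0646, and 0.98 to 1.07, adjusted p = 0.076 to 0.103). In a fit to the 6 day 4 arrays alone neither passed (adjusted p = 0.108 and 0.135).

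Other ES cell genes did not pass with or without that array. Nanog differed by 1.73 with it and by 0.15 without it, Esrrb by 1.11 and -0.05, Tfcp2l1 by 1.59 and 0.06, and Sox2 by 1.34 and -0.01. Among 8 germline genes 2 were higher both ways (25% of the list, against 2.9% of all genes with all arrays). They were Ddx4, a germ cell helicase gene (0.83 ± 0.13; 0.75 without CDL replicate 1), and Sycp3, a gene of the meiotic chromosome axis (0.98 ± 0.13; 0.78). Sycp3 had signals of 44.9, 26.6 and 24.0 in CDL, against 8.21, 11.2 and 9.09 in RDL, below the array medians except in CDL replicate 1.

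ES cell genes made up a larger share of the genes higher in CDL than of all genes tested. Genes with an ES mean at least 4-fold over the day 6 mean, a measure without any day 4 array, numbered 461 of 12400 (3.72%). Of these 68 were higher in CDL, 18.9% of the higher genes and 14.8% of the 461, and 2 were lower. Without CDL replicate 1 the numbers were 55 higher and 6 lower, and the median difference of the 461 genes was 0.42 with the array and 0.07 without it. Chchd10, a mitochondrial protein gene bright in ES cells (5268), had signals of 1953, 448 and 308 in CDL, against 127, 139 and 135 in RDL (2.18 ± 0.42, limma adjusted p = 0.00585; 1.39 without CDL replicate 1). Its call was lost in the fit to the 6 day 4 arrays alone (adjusted p = 0.078). CDL replicate 1 was the highest CDL array in 50.4% of the higher genes and in 41.7% of all genes tested. It was the lowest in 63.3% of the lower genes and in 33.4% of all. In 35 genes brighter than 500 in ES cells and dimmer than 30 in the mean of the other 5 day 4 arrays, its median signal above the RDL mean came to 17.2% of that of ES cells (quartiles 16.3% and 20.7%). The others were near 0 there by choice of the genes.

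**Figure D4:**
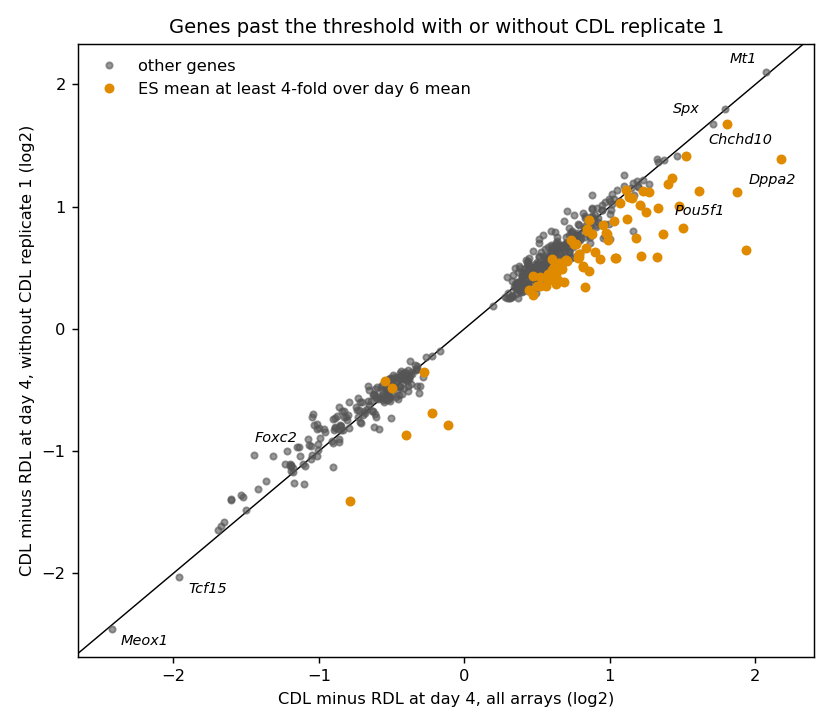
Difference between CDL and RDL at day 4 with all arrays (horizontal axis, log2) and without CDL replicate 1 (vertical axis, log2) for the genes called either way, with genes at least 4-fold brighter in ES cells than at day 6 in orange and a line of equality. Chchd10 lies well below the line at 2.18 and 1.39, while Mt1, Spx, Tcf15 and Meox1 lie near it.

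Without CDL replicate 1 the calls of 114 higher and 74 lower genes were lost. The largest differences among the higher ones by the naming rule were those of the nuclear pore gene Nup210 (0.95; 0.85 without), the adhesion gene Fblim1 (0.90; 0.63), the glycine-cleavage enzyme gene Gldc (0.88; 0.78), Klf9 (0.81; 0.51) and the kinase gene Nrk (0.77; 0.76). The lower ones were led by Foxc2, the antisense transcript Hoxd3os1 (-1.04; -0.69), the semaphorin receptor gene Nrp1 (-1.02; -0.82), Lhx1 and the carbonic anhydrase gene Car4 (-0.91; -0.92). Without that array the adjusted p of Gldc, Nrk and Car4 was 0.0655, 0.0659 and 0.0572. These losses were not particular to CDL replicate 1. Nup210, Fblim1 and Nrk were also lost without CDL replicate 2 or any 1 RDL array (adjusted p = 0.0572 to 0.121), Gldc without CDL replicate 2 or RDL replicate 1 or 3 (0.0506 to 0.0627) and Car4 without CDL replicate 3 or RDL replicate 1 or 3 (0.0756 to 0.0902). Klf9 and Hoxd3os1 were lost without RDL replicate 1 or 2 (0.101 to 0.197) and Nrp1 without RDL replicate 3 (0.0642). As a mean over probe sets the difference was 0.46 for Nup210, 0.51 for Klf9, 0.47 for Nrk, -0.52 for Hoxd3os1 and -0.36 for Nrp1, whose other bright probe sets gave -0.57, -0.04 and 0.16.

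Other large decreases were of genes outside the lists of somite and Hox genes. The protease gene Plat (tPA) had signals of 33.9, 57.1 and 62.1 in CDL, against 133, 179 and 233 in RDL (-1.61 ± 0.19, limma adjusted p = 0.000124; -1.40 without it; -0.89 as a mean over probe sets). The small heat shock protein gene Cryab had 44.2, 46.9 and 46.3 in CDL and 129.6, 118 and 231 in RDL (-1.50 ± 0.22; -1.48 without it; -0.78 as a mean over probe sets). The receptor phosphatase gene Ptprz1 had 78.4, 106 and 99.9 in CDL, against 268, 259.8 and 257 in RDL (-1.36 ± 0.11; -1.25 without it). Sema3c, a secreted guidance factor gene, had 24.8, 34.0 and 36.8 in CDL and 79.1, 86.5 and 109.6 in RDL (-1.23 ± 0.14; -1.11 without it; -0.81 as a mean over probe sets). In each of these the groups were apart, which was part of the rule by which they were named, and 24.5% of all tested genes had groups that did not overlap.

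At day 6, in another line and another sort, the media differed in 456 genes higher in CDL (3.68%) and 488 lower (3.94%), or 7.61% either way. No array is shared between the days. Of the 359 genes higher at day 4, 55 were higher at day 6 (15.3%, and 12.1% of the day 6 list) and 12 were lower. Of the 188 lower at day 4, 39 were lower at day 6 (20.7%, and 7.99% of the day 6 list) and 21 were higher. Without RDL day 6 replicate 1, which stands apart from its group, the day 6 counts were 647 higher and 866 lower. The overlaps were then 59 higher at both days (16.4% of the day 4 genes and 9.12% of the day 6 genes) and 44 lower at both (23.4% and 5.08%), with 17 and 23 in opposite directions. Among the 15 largest decreases Meis1 and Sim1 were lower at day 6 too (-0.88 ± 0.16 and -1.04 ± 0.15), whereas Tcf15, Dmrt2, Efnb2, Ptprz1 and Sema3c were higher. The Dmrt2 call at day 6 was lost without RDL day 6 replicate 1 (0.62, adjusted p = 0.127). Tcf15 averaged 1081 ± 295 in CDL and 378 ± 109 in RDL at day 6 (SD, n = 3 each), a difference of 1.495 ± 0.22 (limma adjusted p = 0.000313) beside -1.96 at day 4. Meox1 averaged 2063 ± 472 in CDL and 1827 ± 191 in RDL at day 6 (0.15 ± 0.18, adjusted p = 0.731) beside -2.42 at day 4. Pax3, whose reporter was sorted at day 6, stood at -0.85 at day 4 and 0.76 at day 6.

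Of the 15 largest increases, 6 were higher at day 6 and 0 were lower. Of these Chchd10 was lost without RDL day 6 replicate 1 (1.47, adjusted p = 0.0589). Mt1 averaged 1138 ± 155 in CDL and 409.9 ± 49.6 in RDL at day 6 (1.44 ± 0.20, limma adjusted p = 0.000219), Mt2 differed by 1.27 ± 0.19 and Stmn2, a microtubule regulator gene, by 1.49 ± 0.23, beside 2.07, 1.80 and 1.52 at day 4. Spx was dim in both media at day 6, at 15.7 ± 1.25 in CDL and 17.5 ± 1.09 in RDL. Wnt feedback genes that had not passed at day 4 passed at day 6: Nkd1 (1.48 ± 0.23), Tnfrsf19, a receptor gene regulated by Wnt (1.74 ± 0.12), Axin2 (0.83 ± 0.23) and Lef1 (0.71 ± 0.21), 4 of 18 against 3.68% of all genes. Without RDL day 6 replicate 1 Axin2 (0.76, adjusted p = 0.0613) and Lef1 (0.44, adjusted p = 0.111) did not pass. For Nkd1 and Tnfrsf19 the difference between the days passed as well, as it did in 5.39% of all genes (adjusted p = 0.0208 and 5.8e-06), and for Axin2 and Lef1 it did not (adjusted p = 0.546 and 0.27). Day, line, strain and sort reporter change together between these arrays and cannot be told apart.

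**Figure D5:**
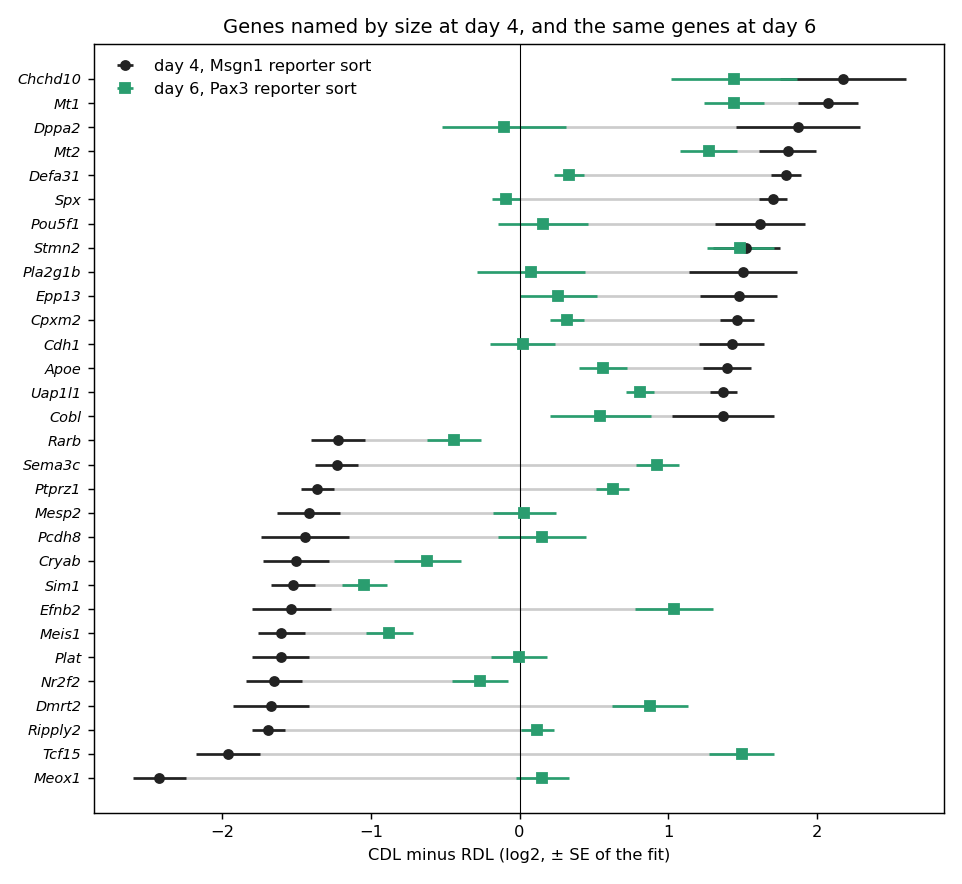
Difference between CDL and RDL (horizontal axis, log2, with the SE of the fit) at day 4 (black circles) and day 6 (green squares) for the 15 largest increases and 15 largest decreases named at day 4. Mt1, Mt2 and Stmn2 are to the right at both days, whereas Tcf15 lies at -1.96 at day 4 and at 1.495 at day 6.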

How the data were processed

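RNA from 15 samples was amplified in 2 cycles, per the labels' protocols, and read on Affymetrix mouse arrays. The authors deposited a linear signal intensity for each probe set, computed with MAS5, per the submitters' processing notes. The MAS5 version and the genome build are not given in the sources used here. Of 45101 probe sets 64 were controls and were dropped. Of the other 45037, 34945 carried 1 gene symbol in the platform annotation, 932 several and 9160 none. The constant 12.6 (the 25th percentile of an array, as the median of the arrays) was added and log2 taken. A probe set had to exceed the 50th percentile of its array in 3 or more arrays, and the brightest single-symbol probe set stood for its gene. This gave 12400 tested genes of 18193, with 5793 set aside as dim. Identical pairs of arrays numbered 0.

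Means of 5 groups of 3 arrays were fitted with limma 3.58.1 in R 4.3.3 (eBayes with an intensity trend, 10 residual degrees of freedom), with Benjamini-Hochberg adjustment over the genes tested. All adjusted p-values are from limma. The fit was tested on simulated data. "Without CDL replicate 1" means the same fit on the other arrays. Named genes were those called with and without that array, with groups that did not overlap: the 15 largest differences in each direction, plus the 5 largest in each direction called only with it, the reporter genes, up to 6 members of each of 49 gene lists and every tested member of 3 Wnt lists. Clone and predicted symbols were passed over. The comparison, the lists and this rule were chosen with earlier results of these data known. Promoter sequences are from RefSeq (GRCm38.p6). Plots used matplotlib 3.10.9 (Python 3.11.15).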

Additional observations from a re-analysis of the deposited data

Results flagged for a closer look

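This section takes named genes called at day 4 or in the lists of Wnt receptors, feedback genes, secreted inhibitors or the destruction complex. In 54 of these the difference between CDL and RDL was not the same at day 6 as at day 4. The test was the interaction of medium and day in the limma fit over all 15 arrays (adjusted p under 0.05). Other named genes past this test are not counted here. Over all 12400 genes tested, 668 passed this test (5.39%). Without RDL day 6 replicate 1, which stands apart from its group, 1216 passed, and of the genes below Apoe did not (-0.76, adjusted p = 0.055). Values are the day 6 difference minus the day 4 difference on the log2 scale, each difference being CDL minus RDL. Many of these genes were named for their day 4 difference, which enters the interaction. The day 6 cells also differ in line (CK35), strain (129Sv) and sort reporter (Pax3-GFP), so that day cannot be told apart from these. Groups of 3 arrays are too small for the test of single outlying values.

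The interaction was positive in 26 genes. Among genes of somite formation, boundaries and dermomyotome it was 3.46 for Tcf15, 2.58 for Meox1, 2.58 for Efnb2, 2.55 for Dmrt2, 1.99 for Foxc2, 1.81 for Ripply2, 1.61 for Pax3, 1.59 for Pcdh8, 1.45 for Mesp2, 1.35 for Mesp1, 1.05 for Eya1 and 1.02 for Met. Among signalling genes it was 2.43 for Fgf18, 2.13 for Hey1, 1.89 for Tnfrsf19, 1.38 for Nkd1, 0.71 for Fst and 0.70 for Fgf9. It was 1.39 for Nr2f2, 1.08 for Hoxd1, 1.07 for Dhrs3, 0.86 for Igf2 and 0.76 for Mest, and among other decreases of day 4 it was 2.16 for Sema3c, 1.99 for Ptprz1 and 1.603 for Plat.

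The interaction was negative in 28 genes. Among Wnt pathway genes it was -2.54 for Dkk1, -2.51 for Fzd5, -1.43 for Sfrp1, -1.05 for Fzd4, -0.80 for Fzd8, -0.66 for Wnt3a and -0.41 for Wnt2. Among streak and Nodal genes it was -0.97 for Lefty1, -0.90 for Evx1, -0.85 for Mixl1 and -0.80 for Cdx4. It was -1.41 for Cdh1, -1.35 for Klf5, -0.999 for Ddx4 and -0.95 for Sycp3. Among the other genes it was -1.89 for Igfbp3, -1.88 for Nrk, -1.80 for Spx, -1.77 for Epha4, -1.76 for Egln3, -1.70 for Fblim1, -1.46 for Defa31, -1.15 for Cpxm2, -0.86 for Cyp26a1, -0.84 for Apoe, -0.75 for Cdkn1c, -0.58 for Adm and -0.56 for Uap1l1.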

How the results depend on the processing

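Of 93 named genes called at day 4, 53 (27 higher and 26 lower in CDL) were called under each alternative that tested them. There were 18 alternatives, and Sycp3, among the 53, was tested in 17 of them. The other 40 were not called in each, 37 of them being lost in some fit without 1 array, and 0 changed direction. The fit without CDL replicate 1 is among the alternatives and was also part of the naming rule. Genes named for the size of their difference were chosen for keeping or for losing their call in that fit. For those genes its outcome was set in advance and is no test of how stable they are. In the fit to the 6 day 4 arrays alone 73 of the 93 passed. Those described above that did not were Chchd10, Dppa2, Fblim1, Klf9, Hoxd3os1, Wnt4, Wnt8a, Fgf4, Hey1, Hes6, Hoxc8, Hoxd8 and Adm (adjusted p = 0.0543 to 0.135). Leaving out 1 array gave 217 to 413 higher genes (359 with all) and 107 to 164 lower (188), 44 to 91 higher at least 2-fold (52) and 31 to 48 lower at least 2-fold (44), and 25 to 36 listed genes higher (33) and 26 to 35 lower (39). With array weights, which gave CDL replicate 1 a weight of 0.357, the counts were 864 higher and 836 lower, and 63 and 68 for listed genes. A constant 4 times as large (50.4) left 25 higher and 17 lower genes of at least 2-fold, and the mean over a gene's probe sets left 21 lower. At day 6, leaving out 1 array gave 308 to 647 higher (456 with all) and 353 to 866 lower (488), and 482 to 1216 interactions (668). The highest came without RDL day 6 replicate 1. Without it and CDL day 4 replicate 1 they were 755, 1021 and 1237, beside 383 higher and 251 lower at day 4. With the replicate number as a block 400 genes were higher and 234 lower at day 4. Same-numbered day 4 arrays deviated together weakly (r = 0.101, 0.244 and 0.096, each array best with its own number). For the same-numbered day 6 arrays r was 0.609, 0.588 and -0.241. The labels state no pairing, and whether there was one was not tested. The cause of these shifts was not tested. Dim genes have little signal over background, and 5793 were not tested.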
